A study of Mus musculus with 6 samples.

Results

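The replication-dependent histone genes make the bulk of the histone protein that packages newly copied DNA. They were taken here as every protein-coding row whose symbol begins with Hist1h, Hist2h, Hist3h or Hist4h. This gave 67 of the 55450 genes in the deposited tables. The rule used symbols and no expression value, but it was chosen with earlier results of these data known. The members were 6 H1, 18 H2A, 18 H2B, 12 H3 and 13 H4 genes. The Hist1 cluster on chromosome 13 held 54 of them, the Hist2 cluster on chromosome 3 held 10, the Hist3 cluster on chromosome 11 held 2 and chromosome 6 held 1, Hist4h4. Another 3 rows with such symbols were annotated as pseudogenes and were not members.

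RNA was measured in 6 subcutaneous tumours that had grown from MTE-Ras cells, mouse tracheal epithelial cancer cells transformed by an oncogenic RAS mutation, in the right flank of C57BL/6 mice. Of these, 3 received PV-10 (rose bengal in solution, used as an intralesional drug), and 3 received PBS by the same intralesional route. The cell line, the mouse strain and the flank were shared by both groups, and no dose, interval, sex or age is given in the sources used here. The tumours are bulk samples of a single transplanted line together with host cells, so fewer cells of a type and less RNA per cell cannot be told apart. The p-values below measure the spread between these 3 tumours a group.

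Histone H2A, H2B, H3 and H4 form the protein core around which DNA is wound in the nucleosome, and linker histone H1 binds where the DNA enters and leaves it. The replication-dependent genes are mostly without introns, are transcribed chiefly in S phase with the coactivator NPAT, and their mRNAs end not in a poly(A) tail but in a short stem-loop that SLBP binds for 3′ end formation, stability and translation. Histone variants that replace these proteins outside S phase, such as those from H3f3a and H3f3b, come from separate genes with polyadenylated mRNAs.

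The shared 3′ element is shown because it marks these mRNAs as a family and because the class differences lie in its stem. A stem-loop of 6 paired bases on each side of a 4-base loop was found in the Gencode M21 transcripts of 44 of the 67 members, within 150 bases after the stop codon. Capitals mark the 2 arms of the stem, and each sequence is read from the transcripts in the sense direction.
Commonest form, 26 genes of H1, H2A, H2B and H3, among them Hist1h1e, Hist1h2ao and Hist2h2aa2: GGCTCTtttcAGAGCC
Loop ending in a, 6 genes, among them Hist1h2bb and Hist1h3c: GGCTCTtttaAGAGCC
Commonest form of the H4 genes, 7 genes, among them Hist1h4d, Hist1h4n and Hist4h4: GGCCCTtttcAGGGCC
Hist2h4 and Hist1h4i: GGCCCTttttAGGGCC
Hist1h4b and Hist1h4j: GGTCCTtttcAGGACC
Hist2h2ac: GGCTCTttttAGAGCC
All 11 H4 genes with a match carried one of the 3 forms listed under H4 genes, and no member of another class did. Introns were annotated in at least 1 transcript of 5 members, the H2B genes Hist1h2bc, Hist1h2be, Hist1h2bp, Hist1h2bq and Hist1h2br. Of the 23 members with no match, 13, among them Hist2h2bb, had transcripts that all stop at the stop codon, so no sequence after it could be searched, and 10, among them Hist1h2bq and Hist1h2br, had at least 1 transcript that goes on beyond it. Another 23 members had models running more than 60 bases past the stem-loop, the longest being Hist1h1d with 4884 bases beyond it.

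Promoters are shown for some of the genes on which the comparisons below turn. Hist2h4 and Hist1h1d had no promoter matched, so theirs are not shown. RefSeq (GRCm38.p6, the same assembly as mm10) matched 61 of the 67 members by symbol or synonym, and the 120 bases before each start are printed 5′ to 3′ on the gene's strand. Capitals mark CCAAT or its reverse complement ATTGG, ATTTGCAT or its reverse complement ATGCAAAT, and TATAAA on the gene's strand in the last 60 bases.
Hist1h2ao, chr13:21810247-21810366, plus strand: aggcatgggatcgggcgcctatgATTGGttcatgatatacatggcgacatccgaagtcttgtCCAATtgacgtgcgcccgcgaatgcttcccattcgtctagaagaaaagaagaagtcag
Hist1h2bq, chr13:21810200-21810319, minus strand: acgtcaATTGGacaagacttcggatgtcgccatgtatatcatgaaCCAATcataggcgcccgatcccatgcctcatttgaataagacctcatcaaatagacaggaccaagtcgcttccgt
Hist1h2br, chr13:21833623-21833742, plus strand: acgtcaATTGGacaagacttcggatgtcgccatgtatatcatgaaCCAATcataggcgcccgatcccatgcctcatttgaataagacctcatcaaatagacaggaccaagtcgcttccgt
Hist2h2bb, chr3:96269580-96269699, plus strand: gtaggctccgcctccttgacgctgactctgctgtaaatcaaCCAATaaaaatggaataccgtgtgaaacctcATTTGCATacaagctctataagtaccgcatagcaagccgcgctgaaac
Hist1h1a, chr13:23763548-23763667, plus strand: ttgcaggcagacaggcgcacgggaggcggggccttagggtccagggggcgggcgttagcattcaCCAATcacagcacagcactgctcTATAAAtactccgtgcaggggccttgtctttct
Hist1h1e, chr13:23622559-23622678, minus strand: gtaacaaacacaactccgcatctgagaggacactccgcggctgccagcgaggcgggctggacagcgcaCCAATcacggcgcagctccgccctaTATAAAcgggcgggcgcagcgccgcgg
Hist1h4d, chr13:23581448-23581567, plus strand: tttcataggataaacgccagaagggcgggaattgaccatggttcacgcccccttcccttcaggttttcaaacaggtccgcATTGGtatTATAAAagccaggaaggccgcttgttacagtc
Hist1h4n, chr13:21832198-21832317, minus strand: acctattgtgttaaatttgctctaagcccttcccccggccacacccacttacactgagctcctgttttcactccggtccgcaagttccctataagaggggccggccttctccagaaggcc
The windows of Hist1h2bq and Hist1h2br were the same letter for letter, and that of Hist1h2ao overlapped that of Hist1h2bq on the other strand, since the pair is transcribed in opposite directions. In the 250 bases before the start, CCAAT on either strand was found in 33.8% of 32817 RefSeq promoters and in 50 of the 61 members. It was in 5 of 5 H1, 18 of 18 H2A, 16 of 16 H2B, 8 of 10 H3 and 3 of 12 H4 promoters. ATTTGCAT on either strand was found in 1.60% of all promoters, in 7 H2A and 6 H2B promoters and in 0 of the other classes, and a match shared by a divergent pair counts for both genes. TATAAA was found in 2.88% of all promoters and in 16 of the 61 members. A match is a description of letters, not of binding.

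The coding sequences within a class were close to each other, which bears on how reads could be assigned. The 13 H4 genes had 12 distinct coding sequences and 1 protein. The 12 H3 genes had 12 coding sequences and 3 annotated proteins, the 18 H2A genes 16 and 9, and the 18 H2B genes 17 and 11. Hist1h2ao and Hist1h2ap, Hist1h2bq and Hist1h2br, Hist2h2aa1 and Hist2h2aa2, and Hist1h4m and Hist1h4n were pairs with 100% coding identity. RSEM, the counting program named in the labels, divides reads among such copies, so the value of any 1 copy is less certain than the sum of its group or class.

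Summed over the 67 genes, the histone level was 11890, 6134 and 4511 CPM (counts relative to the library total, scaled between libraries by TMM) in the PV-10 tumours, against 4170, 2167 and 4505 CPM in the PBS tumours. The groups did not overlap, but PV-10 tumour 3 lay just above PBS tumour 3, and PBS tumour 2 was the lowest of all 6. The mean was 7511 ± 3878 CPM with PV-10 and 3614 ± 1264 CPM with PBS (SD, n = 3 each), a ratio of 2.08. As a share of all counts, histone genes made up 1.15, 0.610 and 0.420% in PV-10 tumours and 0.420, 0.226 and 0.473% in PBS tumours, so that without TMM scaling the groups overlapped. Per length, the sum was 10225, 5837 and 5911 TPM (counts divided by transcript length and scaled to a fixed total) in PV-10 tumours and 6818, 4736 and 8645 TPM in PBS tumours, a ratio of 1.09 with the groups overlapping.

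Of the 67 members, 64 passed the expression filter and entered the test. Only 2, Hist1h2ao and Hist2h2bb, rose at an adjusted p under 0.05 (edgeR's quasi-likelihood F test, Benjamini-Hochberg over 22056 genes), and 0 fell. That share is close to the background, since 3.17% of all tested genes were called higher and 1.92% lower with PV-10. At an unadjusted p under 0.05, 30 of the 64 members passed, all of them higher with PV-10, against 15.6% of all genes higher and 30.0% in either direction, and DESeq2 called 29 members higher and 0 lower, where it called 21.7% of all genes higher. The log2 change was above 0 in 61 of 64 members, against 58.5% of all genes, and its median was 0.93, against 0.30 over all genes. Most members are short, and other short protein-coding genes were mostly positive too. Up to 600 bases, 88.0% of those others and 100.0% of the histone genes were above 0. From 600 to 1200 bases it was 84.4% of the others and 93.3% of the histone genes. The 3 members with a negative value were Hist2h3c1, Hist2h2be and Hist1h4d. In 20 of the 64 members the lowest PV-10 tumour exceeded the highest PBS tumour, against 22.0% of all genes, and in 0 the reverse held, against 16.8%.

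The number of members called differed widely between settings, as did the number of genes called. In edgeR, 10 members were called higher with DESeq2 size factors (6.66% of all genes), 6 with library size alone (4.44%), 28 with no low-count filter (5.20%), 12 with a mean count of at least 50 (10.1%), 14 among protein-coding genes alone (9.58%), 7 with a replicate block (4.78%) and 1 with near-identical copies merged (3.23%). limma-voom called 5 members higher (3.79%), limma on log2(TPM + 1) called 1 (1.14%) and on log2(TPM + 0.1) called 1 (1.90%), and with a trend on transcript length removed 0 members were called (0.00907%). Without PV-10 tumour 3, 30 members were called higher (25.0% of all genes). Without PV-10 tumour 1 or 2 it was 0 (0.00879% and 0.0210%), and without PBS tumour 1, 2 or 3 it was also 0 (0.00356, 0.00361 and 0.00357%).

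The members moved as a group from tumour to tumour inside each treatment. In 43 of 64 members the CPM was highest in PV-10 tumour 1, intermediate in tumour 2 and lowest in tumour 3, an order found in 19.4% of all tested genes. PBS tumour 2 had the lowest CPM of its group in 61 of 64 members, against 28.3% of all genes. In 38 of the 64, PV-10 tumour 3 was inside or below the range of the PBS tumours. The share of all genes for which this held was not counted, so the 38 cannot be called particular to histone genes. Over all genes PV-10 tumour 3 was also the one whose log2 CPM correlated more closely with the PBS tumours, at 0.909 to 0.930, than with PV-10 tumours 1 and 2, at 0.874 and 0.822.

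**Figure D1:**
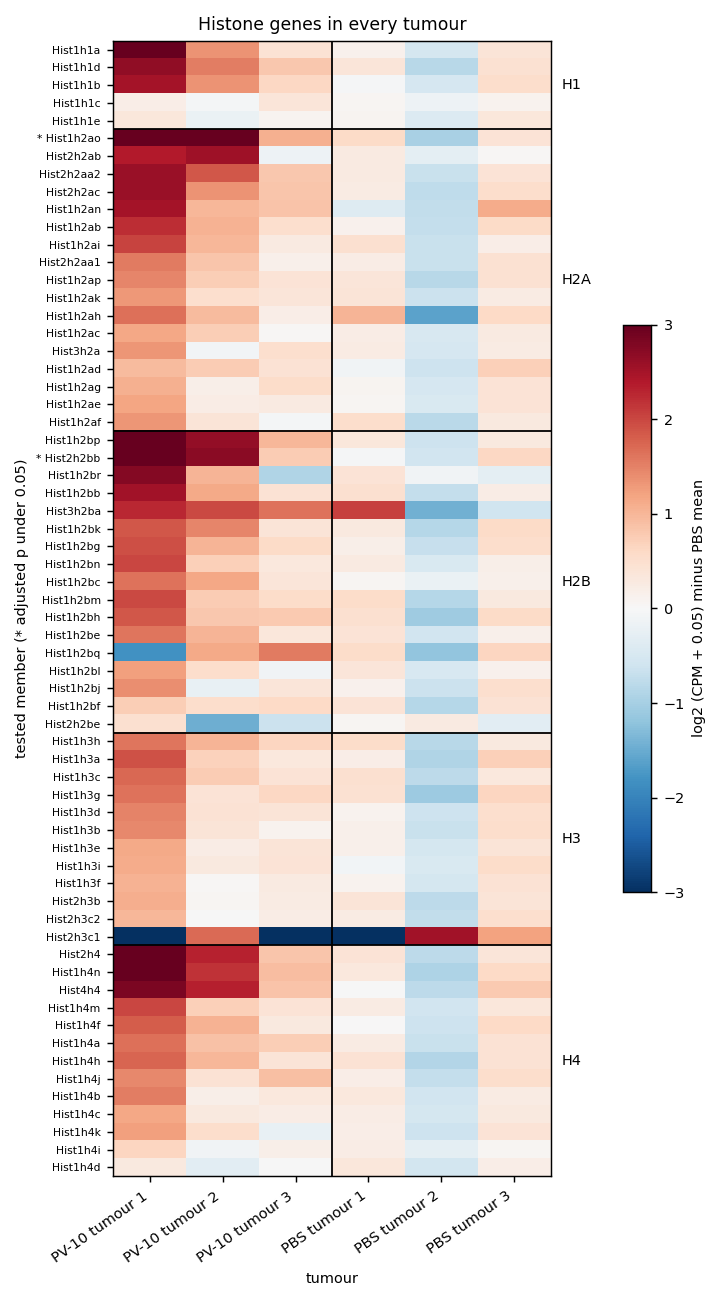
Rows are the 64 tested histone genes, grouped by class and ordered by their log2 change, and columns are the 3 PV-10 tumours and then the 3 PBS tumours. Colour gives log2 (CPM + 0.05) minus the mean of the PBS tumours and is saturated beyond 3 in either direction, and the asterisks mark the 2 genes past an adjusted p of 0.05. PV-10 tumour 1 is the reddest column, and PBS tumour 2 is bluer than the other PBS tumours in all classes.

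The linker histone genes were split. Summed H1 level was 1396, 712 and 603 CPM in PV-10 tumours and 514, 338 and 594.9 CPM in PBS tumours, with the groups just apart. Scaled by library size alone, without TMM, the H1 sums overlapped. Hist1h1a, Hist1h1b and Hist1h1d had log2 changes of 1.65 to 1.99 and groups that did not overlap. The other 2 tested members, Hist1h1c and Hist1h1e, had values near 0. Transcripts were 741 and 743 bases for Hist1h1a and Hist1h1b, 7425 bases for Hist1h1d, and 1560 and 1930 bases for Hist1h1c and Hist1h1e. Other protein-coding genes had a median log2 change of 1.02 from 600 to 1200 bases and 0.40 from 1200 to 2400 bases. Beyond 4800 bases, the range of Hist1h1d, their median was -0.48. The part of length in this split was not tested. Hist1h1d (chr13:23553262-23560686) had 685, 314 and 191 CPM in PV-10 tumours, against 140, 61.2 and 149 CPM in PBS tumours, with a log2 change of 1.76 and a standard error of 0.51 (the ± of each log2 change below; edgeR adjusted p = 0.0632). Hist1h1a, whose promoter is printed above, had 199, 60.7 and 32.3 CPM in PV-10 tumours, against 25.7, 16.5 and 31.2 CPM in PBS tumours, a log2 change of 1.99 ± 0.60 (edgeR adjusted p = 0.0688). In both genes PV-10 tumour 1 was far above the rest, and for Hist1h1a PV-10 tumour 3 barely passed PBS tumour 3. Hist1h1b had a log2 change of 1.65 ± 0.48 (edgeR adjusted p = 0.0637).

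Hist1h1e (chr13:23620629-23622558), which took the largest share of H1 TPM in each PBS tumour, had 300.0, 207 and 251 CPM in PV-10 tumours, against 251, 178 and 304 CPM in PBS tumours. The groups overlapped throughout, and the log2 change was 0.05 ± 0.30. Hist1h1c had 83.5, 70.3 and 93.5 CPM in PV-10 tumours and 75.8, 66.1 and 78.4 CPM in PBS tumours, a narrower spread than that of Hist1h1e. The makeup of the class differed accordingly. Hist1h1e took 21.5, 29.1 and 41.6% of H1 counts in PV-10 tumours, against 48.7, 52.7 and 51.0% in PBS tumours, and by TPM 19.0, 28.1 and 40.4% in PV-10 tumours, against 47.2, 47.0 and 47.7% in PBS tumours. The groups were apart in both units, with PV-10 tumour 3 nearest to the PBS tumours. The share of Hist1h1a in H1 TPM was 38.8, 25.2 and 15.9% in PV-10 tumours, against 15.3, 13.8 and 15.2% in PBS tumours. Hist1h1e overlaps Hist1h2be and a pseudogene on the same strand, and Hist1h1d has by far the longest model of any member, 7425 bases.

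The H2A genes, whose protein pairs with H2B in the nucleosome core, summed to 3651, 2006 and 1363 CPM in PV-10 tumours and 1250, 616 and 1353 CPM in PBS tumours. PV-10 tumour 3 and PBS tumour 3 nearly coincided in this sum. All 17 tested members had a positive log2 change, against 58.5% of all genes, with a median of 0.84. Of these, 1 was called higher, against 3.17% of all genes. The member with the largest H2A count, Hist1h2ap (chr13:21833026-21833507), had 850, 513 and 408 CPM in PV-10 tumours, against 394, 173 and 422 CPM in PBS tumours, so PV-10 tumour 3 fell between the PBS values. Its log2 change was 0.84 ± 0.41 (edgeR adjusted p = 0.202).

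Hist1h2ao (chr13:21810465-21810944, plus strand), the H2A gene that was called, rose with a log2 change of 4.96 ± 1.16 (edgeR adjusted p = 0.0470). It had 180, 27.8 and 4.36 CPM in PV-10 tumours, against 3.07, 1.02 and 2.74 CPM in PBS tumours. The rise is large in PV-10 tumours 1 and 2 and small in tumour 3. Its coding sequence is identical to that of Hist1h2ap. When 5 H2A genes linked by coding identities of at least 99%, each to at least 1 other of them (Hist1h2ad, Hist1h2ae, Hist1h2ag, Hist1h2ao and Hist1h2ap) were merged into 1 row, the group had 1129, 604 and 476 CPM in PV-10 tumours, against 445, 207 and 492 CPM in PBS tumours, and the call was lost (log2 change 0.95 ± 0.43, edgeR adjusted p = 0.171). Over all alternatives the adjusted p for Hist1h2ao ran from 0.00149 to 0.259.

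On chromosome 3, the identical pair Hist2h2aa1 and Hist2h2aa2 differed in size of change. Hist2h2aa2 (chr3:96239749-96240276) had 838, 504 and 242 CPM in PV-10 tumours, against 165, 86.6 and 184 CPM in PBS tumours, a log2 change of 1.86 ± 0.47 (edgeR adjusted p = 0.0521) with groups apart. Hist2h2aa1 (chr3:96245497-96246082) had 577, 348 and 215 CPM in PV-10 tumours, against 227, 122 and 265 CPM in PBS tumours, a log2 change of 0.89 ± 0.42 with the groups overlapping. Merged, the pair had a log2 change of 1.38 ± 0.45 (edgeR adjusted p = 0.0797). Hist2h2ac had 318, 135 and 94.5 CPM in PV-10 tumours and 63.0, 31.1 and 75.7 CPM in PBS tumours, a log2 change of 1.69 ± 0.50 with groups apart but no call.

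The H2B genes summed to 990, 544 and 354 CPM in PV-10 tumours and 306, 175 and 316 CPM in PBS tumours, and the groups were apart. Scaled by library size alone, without TMM, the H2B sums overlapped. Of the 17 tested H2B members, 16 had a positive log2 change, against 58.5% of all genes, and the median was 1.14. In 8 members the groups did not overlap and PV-10 was higher, against 22.0% of all genes. In 0 members the groups were apart with PV-10 lower, against 16.8% of all genes. Hist2h2bb (chr3:96269752-96270132), the called member, rose with a log2 change of 2.64 ± 0.62 (edgeR adjusted p = 0.0470). It had 130, 72.9 and 19.2 CPM in PV-10 tumours, against 11.0, 7.47 and 17.2 CPM in PBS tumours. PV-10 tumours 1 and 2 stood several-fold above every PBS tumour and PV-10 tumour 3 was close to PBS tumour 3. It overlaps an annotated lincRNA on the same strand, its model holds little beyond the coding sequence, and its adjusted p ran from 1.47e-09 to 0.205 over all alternatives. Hist1h2bp, a gene of low level, had 6.16, 2.79 and 0.867 CPM in PV-10 tumours and 0.534, 0.248 and 0.512 CPM in PBS tumours, with a log2 change of 2.92 ± 0.84 (edgeR adjusted p = 0.0632).

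Among the abundant H2B genes, Hist1h2bc had 189, 135 and 78.4 CPM in PV-10 tumours, against 63.1, 52.4 and 67.5 CPM in PBS tumours, with the groups apart and a log2 change of 1.14 ± 0.34 (edgeR adjusted p = 0.0686). Hist1h2bg had 98.1, 52.0 and 38.1 CPM in PV-10 tumours and 29.0, 15.9 and 36.9 CPM in PBS tumours. The copies Hist1h2bq and Hist1h2br, with the same coding sequence and the same promoter window, behaved unlike each other. Hist1h2bq had 4.82, 37.6 and 50.6 CPM in PV-10 tumours and 25.1, 7.48 and 26.6 CPM in PBS tumours, while Hist1h2br had 151, 44.7 and 11.9 CPM in PV-10 tumours and 29.2, 20.7 and 18.0 CPM in PBS tumours. The tumour with the lowest value of one copy, PV-10 tumour 1, had the highest of the other. Merged with Hist1h2bc and Hist1h2bj, the group had 409, 239 and 172 CPM in PV-10 tumours and 144, 96.2 and 147 CPM in PBS tumours, a log2 change of 1.08 ± 0.36 (edgeR adjusted p = 0.0835).

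The H3 genes had the lowest class median. Their sum was 2417, 1213 and 1289 CPM in PV-10 tumours and 1301, 641 and 1436 CPM in PBS tumours, so the groups overlapped, and only PV-10 tumour 1 stood above the PBS tumours. None of the 12 members was called by edgeR or limma-voom, 1 had an unadjusted p under 0.05 in edgeR, DESeq2 called 2 higher, and the median log2 change was 0.64. Hist2h3b had 767, 380 and 428 CPM in PV-10 tumours, against 477, 211 and 471 CPM in PBS tumours (log2 change 0.44 ± 0.40), and Hist2h3c2 had 635, 316 and 374 CPM in PV-10 tumours, against 379, 189 and 449 CPM in PBS tumours (0.38 ± 0.39). In both genes PV-10 tumours 2 and 3 were inside the PBS range. Hist1h3c had 241, 124 and 96.8 CPM in PV-10 tumours and 102, 42.5 and 91.3 CPM in PBS tumours (0.97 ± 0.43). Per length, Hist2h3b and Hist1h2ap were the most abundant members over the 6 tumours, at 773 ± 229 and 874 ± 206 TPM with PV-10 and 1025 ± 312 and 893 ± 307 TPM with PBS (SD, n = 3 each), and neither pair of groups was apart.

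By CPM, the H4 genes had the largest ratio of class sums. They summed to 3435, 1660 and 901 CPM in PV-10 tumours and 799, 396 and 807 CPM in PBS tumours, a log2 difference of 1.58 between the means. Much of it lay in 1 gene. Hist2h4 (chr3:96261682-96263311, minus strand) had 2234, 988 and 354 CPM in PV-10 tumours, against 265, 115 and 255 CPM in PBS tumours, a log2 change of 2.49 ± 0.62 that missed the threshold (edgeR adjusted p = 0.0505). Without Hist2h4, the H4 sum was 1201, 672 and 547 CPM in PV-10 tumours and 535, 281 and 552 CPM in PBS tumours, a log2 difference of 0.82, and the groups overlapped.

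Other H4 genes with groups apart were Hist1h4n, with 214, 120 and 50.6 CPM in PV-10 tumours and 33.3, 14.1 and 40.6 CPM in PBS tumours (log2 change 2.13 ± 0.55, edgeR adjusted p = 0.0527), and Hist4h4, with 60.2, 43.0 and 15.4 CPM in PV-10 tumours and 8.44, 4.85 and 14.7 CPM in PBS tumours (2.08 ± 0.54, adjusted p = 0.0528). Merged with its identical copy Hist1h4m, Hist1h4n kept a log2 change of 1.88 ± 0.51 (edgeR adjusted p = 0.0579). Hist1h4d (chr13:23581598-23582735), which encodes the same protein, had 181, 119 and 147 CPM in PV-10 tumours, against 187, 101 and 170 CPM in PBS tumours, a log2 change of -0.04 ± 0.31. Its groups overlapped fully. Hist1h4b had 170, 65.6 and 72.6 CPM in PV-10 tumours and 73.2, 39.4 and 68.7 CPM in PBS tumours (0.77 ± 0.42).

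As a share of H4 counts, Hist2h4 made up 65.0, 59.5 and 39.3% in PV-10 tumours, against 33.1, 29.1 and 31.6% in PBS tumours. Hist1h4d made up 5.26, 7.18 and 16.3% in PV-10 tumours, against 23.5, 25.4 and 21.1% in PBS tumours. The groups were apart for both genes, and stayed so by TPM, where Hist2h4 held 30.0, 26.3 and 14.5% of H4 TPM in PV-10 tumours and 11.4, 9.61 and 10.7% in PBS tumours, and Hist1h4d held 3.66, 4.77 and 9.09% in PV-10 tumours and 12.2, 12.8 and 10.8% in PBS tumours. These shares are within a library and do not depend on the scaling between libraries. Both models run past the stem-loop, to 1630 bases in Hist2h4 and 1138 bases in Hist1h4d.

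**Figure D2:**
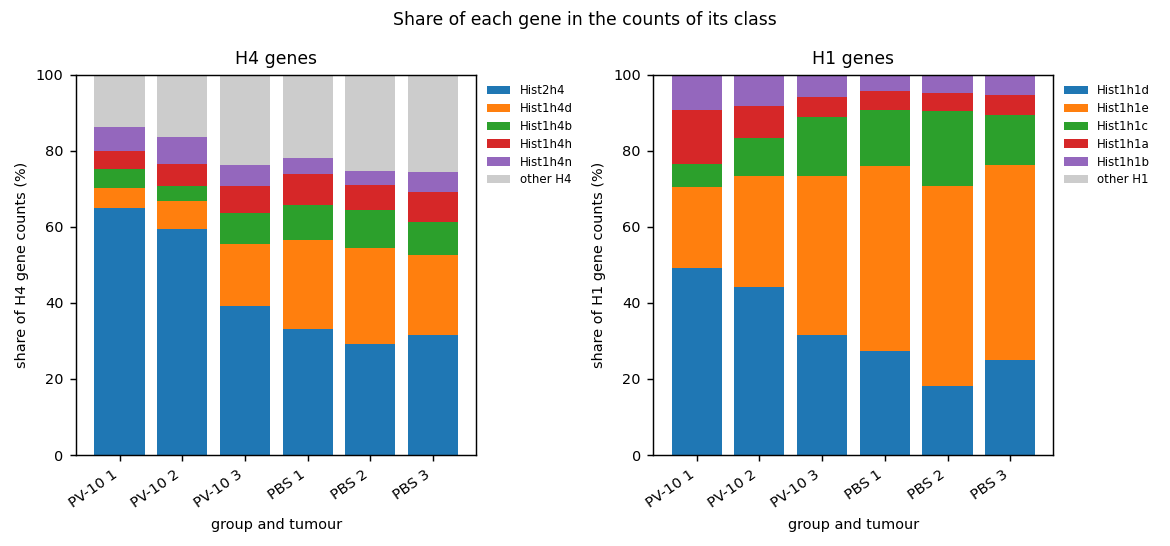
Stacked bars give, for each of the 3 PV-10 and 3 PBS tumours, the percent of the H4 counts (left) and the H1 counts (right) taken by each named gene, with the rest in grey. Hist2h4 fills 39.3 to 65.0% of the H4 bar in PV-10 tumours and 29.1 to 33.1% in PBS tumours, and Hist1h1e fills 21.5 to 41.6% of the H1 bar in PV-10 tumours and 48.7 to 52.7% in PBS tumours.

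Between classes, the ratio of H4 to H3 counts was 1.42, 1.37 and 0.699 in PV-10 tumours and 0.614, 0.618 and 0.562 in PBS tumours, and by TPM it was 0.961, 0.960 and 0.597 in PV-10 tumours, against 0.535, 0.577 and 0.524 in PBS tumours. H3 genes made up 20.3, 19.8 and 28.6% of histone counts in PV-10 tumours, against 31.2, 29.6 and 31.9% in PBS tumours. H4 genes made up 28.9, 27.1 and 19.98% in PV-10 tumours, against 19.2, 18.3 and 17.9% in PBS tumours. The groups were apart on each of these measures, PV-10 tumour 3 lay nearest to the PBS tumours on each, and no p is given, since an exact permutation test of 3 against 3 cannot go below 0.1. Without Hist2h4, the ratio of H4 to H3 counts was 0.497, 0.554 and 0.425 in PV-10 tumours and 0.411, 0.438 and 0.384 in PBS tumours, and the groups overlapped, as they did by TPM. The H4 share of the remaining histone counts, 12.4, 13.1 and 13.2% in PV-10 tumours and 13.7, 13.7 and 13.0% in PBS tumours, overlapped as well, and the H3 share, 25.0, 23.6 and 31.0% in PV-10 tumours and 33.3, 31.25 and 33.8% in PBS tumours, stayed just apart.

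**Figure D3:**
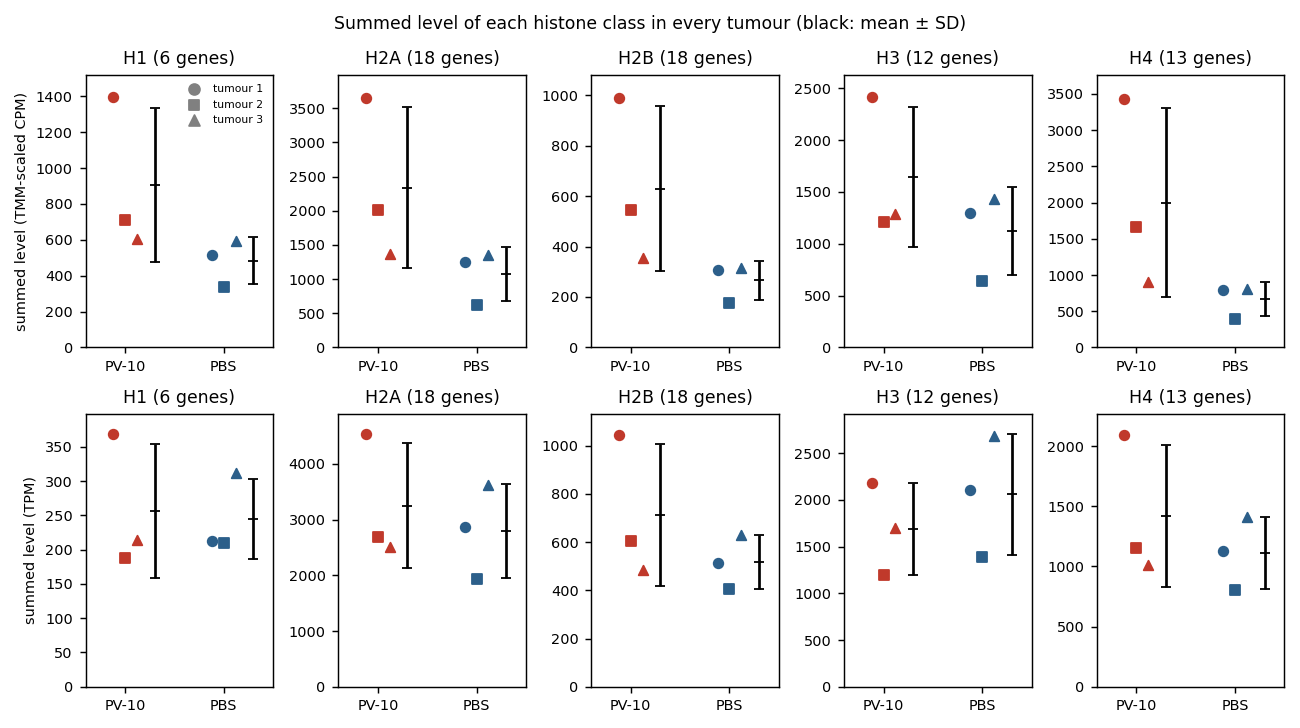
Each panel sums the genes of 1 class, in TMM-scaled CPM in the upper row and in TPM in the lower row, on axes that start at 0; symbols are single tumours, PV-10 left and PBS right, and black bars are the mean ± SD. By TMM-scaled CPM the H1, H2A, H2B and H4 sums of the PV-10 tumours lie above those of the PBS tumours. The H3 sums overlap. By TPM every class overlaps, as it does in CPM scaled by library size alone, which is not plotted.

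The members expressed mainly in testis were at the edge of detection. Hist1h1t, a testis linker histone, had 1, 31 and 20 counts in PV-10 tumours and 0 in each PBS tumour. Hist1h2aa had 1, 39 and 0 counts in PV-10 tumours and 0 in each PBS tumour, and Hist1h2ba had 0 counts in each PV-10 tumour and 0, 14 and 0 in PBS tumours. These 3 did not pass the filter, and with total counts of 36730318 to 98717951 per tumour, 3 counts correspond to 0.0304 to 0.0817 CPM. Of 5 germ-cell markers, Tnp1 was at 0 in all tumours, and the sum of the 5 was 0.148 to 0.895 CPM in PV-10 tumours and 0 to 0.176 CPM in PBS tumours.

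Histone transcripts are short, and transcript length moved with the treatment groups. The median length of the tested members was 556 bases, against 3390 bases for the longest transcript of all tested protein-coding genes. The slope of log2 CPM on log2 effective length, relative to the mean of the 6 tumours, was -0.100, -0.047 and -0.089 in PV-10 tumours and 0.071, 0.115 and 0.050 in PBS tumours (exact two-sided permutation p = 0.1, the smallest that 3 against 3 allows), and the fragment length implied by the counts and TPM of 31 genes was 167 to 168 bases in PV-10 tumours and 176 to 191 bases in PBS tumours (exact permutation p = 0.1). Among tested protein-coding genes outside the family, the median log2 change was 1.44 for the 92 with transcripts up to 600 bases and -0.48 for the 4109 beyond 4800 bases. The 34 histone genes up to 600 bases had a median of 1.04, below that of other genes as short. From 600 to 1200 bases the medians were 0.89 for 15 histone genes and 1.02 for 903 others, and from 1200 to 2400 bases they were 0.65 for 10 histone genes and 0.40 for 3560 others. From 2400 to 4800 bases they were 0.85 for 4 histone genes and 0.01 for 7425 others, and the 1 histone gene beyond 4800 bases, Hist1h1d, had 1.76.

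**Figure D4:**
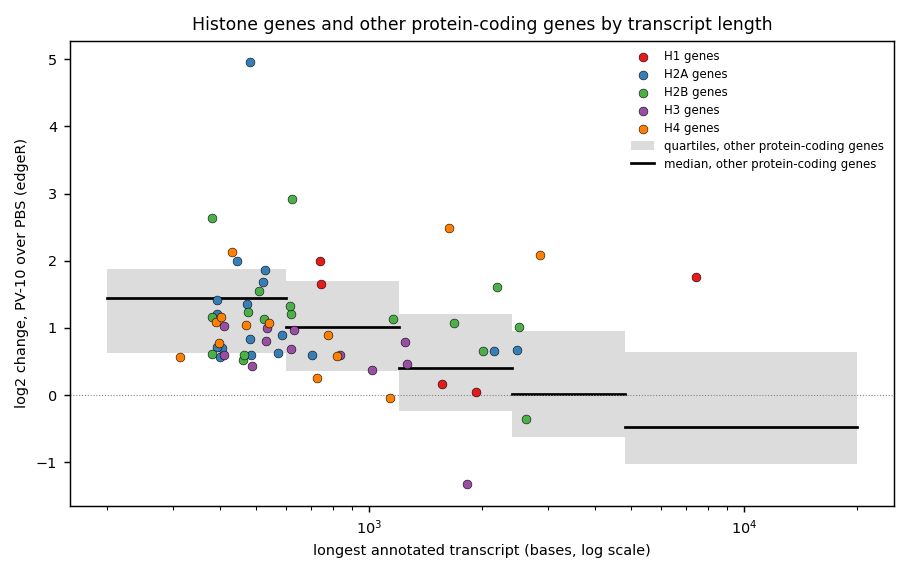
Points are the 64 tested histone genes by class, with the length of the longest annotated transcript on a log axis and the log2 change of PV-10 over PBS on the vertical axis; black lines are the medians and grey bands the quartiles of other tested protein-coding genes in 5 length ranges. Most histone genes of up to 600 bases lie within or below the band, and Hist1h1d, at 7425 bases, Hist4h4 and Hist2h4 lie above theirs.

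With a smooth trend on length removed from the counts, the median log2 change of the members was -0.01, with 31 positive and 33 negative, against -0.27 over all genes, and 0 members were called. The class medians were then 0.69 for H1, -0.01 for H2A, 0.23 for H2B, -0.24 for H3 and 0.00 for H4. On log2(TPM + 1), the median of the members was 0.10, against -0.21 over all genes. A length that is the same in each tumour cancels in a change between groups. The fragment length implied by counts and TPM differed between tumours, so the length behind TPM need not have been the same. TPM was not fitted to the length trend, and how much of that trend it removes was not tested. The H1 genes had the highest class median and the H3 genes the lowest under each setting plotted. The H1 median rests on 5 tested genes, and the class sums gave another order. By summed CPM, the log2 ratio of the means was 0.91 for H1 and 0.54 for H3. It was 1.13 for H2A, 1.24 for H2B and 1.58 for H4. With the trend removed, the log2 changes were 3.72 for Hist1h2ao, 1.71 for Hist2h4, 1.51 for Hist1h1d and 1.48 for Hist2h2bb, and -0.54 for Hist1h1e, and none was called.

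**Figure D5:**
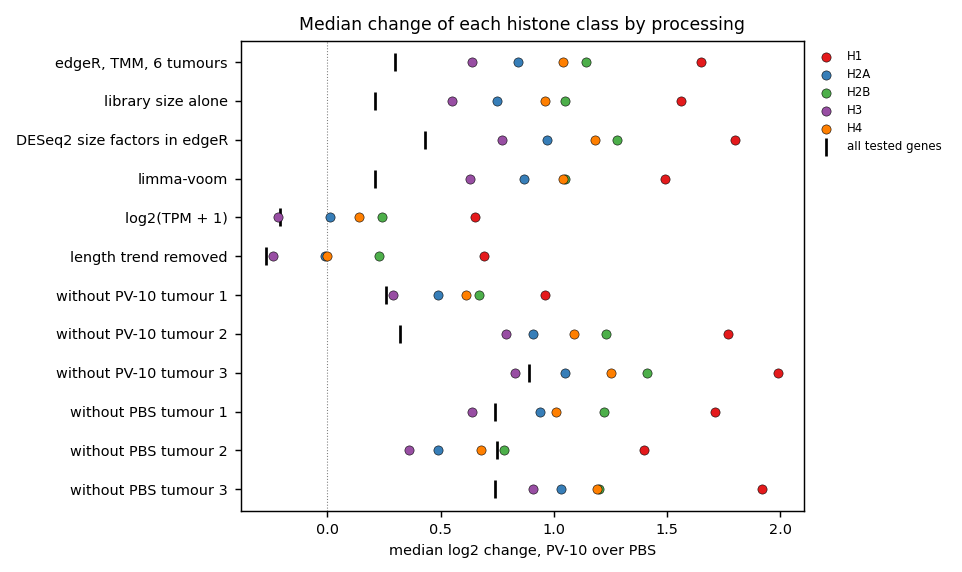
Each row is 1 processing of the data, points are the median log2 change of PV-10 over PBS of the tested genes of each histone class, and the black tick is the median of all tested genes. H1 is the rightmost class and H3 the leftmost in each row; with TPM or with the length trend removed, H3 lies at -0.22 and -0.24, and H1 at 0.65 and 0.69.

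Genes that work on histones or in the same phase of the cell cycle gave the following values, list by list. For comparison, edgeR called 3.17% of all tested genes higher and 1.92% lower, and 30.0% had an unadjusted p under 0.05. DESeq2 called 21.7% of all genes higher, and limma-voom 3.79%. These shares apply to each list below. The shares of all genes that DESeq2 and limma-voom called lower are not given. Their totals in either direction stand in the section on processing, so the counts called lower by these tools have no direct background here. Of 11 replication-independent histone genes, edgeR called 1 higher and 0 lower, with 4 at an unadjusted p under 0.05 and a median log2 change of 0.61; DESeq2 called 5 higher and 0 lower, and limma-voom 3 and 0. That gene was H3f3a, which encodes the H3 replacement variant and had 727, 563 and 247 CPM in PV-10 tumours, against 147, 152 and 163 CPM in PBS tumours (log2 change 1.73 ± 0.39, edgeR adjusted p = 0.0451), with groups apart. H3f3b, which encodes the same protein, had 827, 815 and 758 CPM in PV-10 tumours, against 619, 533 and 481 CPM in PBS tumours (0.56 ± 0.26, adjusted p = 0.180). H2afz, the H2A variant of gene starts, had a log2 change of 1.60 ± 0.44 (edgeR adjusted p = 0.0585), H2afx, the variant phosphorylated at DNA breaks, 0.42 ± 0.40, H1f0, the linker histone of resting cells, 0.24 ± 0.30, and the centromeric variant Cenpa 0.61 ± 0.35.

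Of 14 tested genes for making and degrading histone mRNA, 0 were called in either direction and the median log2 change was -0.44. Slbp, the stem-loop binding protein, had 62.0, 46.3 and 38.4 CPM in PV-10 tumours, against 43.3, 33.1 and 39.5 CPM in PBS tumours (0.34 ± 0.27), with the groups overlapping. Npat had 32.7, 27.6 and 55.9 CPM in PV-10 tumours, against 54.9, 56.7 and 65.3 CPM in PBS tumours (-0.61 ± 0.31, edgeR adjusted p = 0.223). Sympk, a scaffold of the cleavage complex, had 20.5, 24.8 and 55.6 CPM in PV-10 tumours, against 93.1, 90.3 and 94.1 CPM in PBS tumours (-1.46 ± 0.38, edgeR adjusted p = 0.0544), and in this gene too PV-10 tumour 3 was nearest to the PBS tumours. At an unadjusted p under 0.05, 4 of the 14 passed: Sympk, the decay factor gene Upf1 (log2 change -1.36 ± 0.36), Casp8ap2 (-0.87 ± 0.28) and Lsm10, a subunit gene of the U7 particle (0.93 ± 0.29). DESeq2 called 1 higher and 3 lower, and limma-voom 0 and 2.

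Of 12 histone chaperone and related genes, edgeR called 1 higher and 0 lower, with 4 at an unadjusted p under 0.05 and a median of -0.16; DESeq2 called 3 higher and 2 lower, and limma-voom 1 and 1. The gene that rose was Rbbp4, a histone-binding subunit of the CAF-1 chaperone (129, 110 and 88.4 CPM in PV-10 tumours, against 49.7, 49.0 and 57.6 CPM in PBS tumours; 1.07 ± 0.26, edgeR adjusted p = 0.0496). Of 22 DNA replication genes, edgeR called 1 higher and 0 lower, with 11 at an unadjusted p under 0.05 and a median of 0.25; DESeq2 called 8 higher and 2 lower, and limma-voom 2 and 0. The gene that rose was the clamp loader subunit gene Rfc3 (40.2, 26.4 and 18.0 CPM in PV-10 tumours, against 7.97, 8.43 and 11.1 CPM in PBS tumours; 1.62 ± 0.34, edgeR adjusted p = 0.0443). Pcna, the sliding clamp, had 421, 222 and 152 CPM in PV-10 tumours, against 109, 67.0 and 101 CPM in PBS tumours (1.52 ± 0.40, edgeR adjusted p = 0.0547), the same order of tumours as most histone genes.

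Of 11 genes of S phase entry, 0 were called by edgeR, with a median of -0.46 and 4 at an unadjusted p under 0.05, and DESeq2 called 1 higher and 1 lower. Of 14 genes of G2 and mitosis, edgeR called 0 higher and 3 lower, with 6 at an unadjusted p under 0.05 and a median of -0.24; DESeq2 called 1 higher and 4 lower, and limma-voom 0 and 3. The proliferation marker gene Mki67 fell to 152, 131 and 197 CPM in PV-10 tumours, against 654, 375 and 744 CPM in PBS tumours (-1.89 ± 0.34, edgeR adjusted p = 0.0443). The kinetochore genes Cenpe and Cenpf fell with log2 changes of -1.69 and -1.76 (edgeR adjusted p = 0.0443 for both). Of all these genes called, H3f3a, Rbbp4 and Rfc3 were not called on log2(TPM + 1), with adjusted p of 0.160, 0.636 and 0.124, while Mki67, Cenpe and Cenpf were (limma), and with the length trend removed none of the 6 was.

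Cell type markers and library quality stood as follows beside these values. Epithelial markers summed to 465, 493 and 632 CPM in PV-10 tumours and 782, 484 and 674 CPM in PBS tumours; Krt8 and Krt18 made up nearly all of this, and Epcam, Krt5 and Krt14 were each under 3 CPM, so the epithelial label rests on the simple keratins. Leukocyte markers summed to 1171, 1205 and 959 CPM in PV-10 tumours and 794, 614 and 530 CPM in PBS tumours. The macrophage and granulocyte gene Lyz2 made up most of that sum, with 989, 1064 and 752 CPM in PV-10 tumours and 547, 413 and 337 CPM in PBS tumours. Itgam, a myeloid integrin gene, had 91.5, 73.1 and 105.5 CPM in PV-10 tumours and 175, 136 and 116 CPM in PBS tumours (-0.66 ± 0.28, edgeR adjusted p = 0.150), with the groups apart in the other direction, and the leukocyte gene Ptprc overlapped (0.19 ± 0.26). Fibroblast markers summed to 3474, 1981 and 2628 CPM in PV-10 tumours and 1825, 3073 and 3989 CPM in PBS tumours, and endothelial markers to 106, 82.6 and 290 CPM in PV-10 tumours and 170, 342 and 312 CPM in PBS tumours. Muscle markers summed to 36.0, 177 and 3.38 CPM in PV-10 tumours and 10.5, 2.78 and 1.54 CPM in PBS tumours, and erythroid markers were under 3 CPM. edgeR called 0 of the 25 tested genes of these marker lists. Of the 25, 8 had an unadjusted p under 0.05 in edgeR, against 30.0% of all genes. DESeq2 called 2 higher, against 21.7% of all genes, and 1 lower. Mitochondrially encoded genes took 6.40, 8.04 and 9.32% of counts in PV-10 tumours and 7.99, 6.82 and 5.87% in PBS tumours (exact two-sided permutation p = 0.4). The part of the marker levels in the histone values was not tested.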

How the data were processed

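RNA from 3 PV-10 and 3 PBS tumours was sequenced, per the labels' protocols, from strand-specific NuGEN Universal libraries. Whether RNA was selected by poly(A) tail is not described here, which bears on how fully mRNAs without such a tail were counted. Per the labels' protocols, the authors found adapters with BBMerge 37.02, trimmed with cutadapt 1.8.1, aligned to mm10 with STAR 2.7.7a and evaluated gene expression with RSEM 1.3.0 and Gencode M21. Deposited counts are whole numbers per gene with no normalization, and whether they were rounded and which strand was counted are not given in the sources used here. The deposited TPM table holds TPM values, which the authors scaled for transcript length. Total counts ran from 36730318 to 98717951 per tumour.

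The counts were tested with edgeR 4.0.16 (R 4.3.3): default expression filter, TMM scaling, robust quasi-likelihood F test and Benjamini-Hochberg adjustment over 22056 genes. A gene was called at an adjusted p under 0.05. The biological coefficient of variation was 0.777, and the lowest adjusted p, 0.0443, is shared by many genes. Standard errors divide the absolute log2 change by the root of the F statistic. CPM values are TMM-scaled. Class sums have no test. On simulated counts for 20100 genes in this design, 36.4% of genes changed by a log2 of 2 and 62.1% of those changed by 4 were called.

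Alternatives were library size alone, DESeq2 1.42.0, DESeq2 size factors in edgeR, 2 other filters, limma-voom (limma 3.58.1), limma on log2(TPM + 1) and log2(TPM + 0.1), a length trend (spline with 5 degrees of freedom) removed, protein-coding genes alone, a replicate block and each tumour left out. Merging of copies and the values without Hist2h4 were chosen after seeing the data.

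The members, the gene lists and the rule for named genes were chosen with earlier results of these data known. The rule names in each class the 3 members with the highest mean CPM, the called members, the germ-cell members, and from each list called genes, abundant genes and a short set of others (Slbp, Npat, H3f3a, H3f3b, H2afz, H2afx, H1f0, Cenpa, Mki67, Pcna). Members with an unadjusted p under 0.01, and the remaining genes named beside a count, were added after their values were seen. Promoters are from RefSeq tables and stem-loops from the Gencode M21 transcripts. Figures were drawn with matplotlib 3.10.9.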

Additional observations from a re-analysis of the deposited data

How the results depend on the processing

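The count of histone genes called higher depended strongly on the processing, with the count over all genes called, in either direction, beside it. Against 2 of 64 and 1122 in the main fit, the counts were 29 and 8213 with DESeq2, 10 and 2537 with DESeq2 size factors, 6 and 2441 with library size alone, 28 and 4664 with no filter, 12 and 2705 with a mean count of at least 50, 5 and 2016 with limma-voom, 1 and 4037 with log2(TPM + 1), 1 and 3998 with log2(TPM + 0.1), 0 and 2 with the length trend removed, 14 and 2805 with protein-coding genes alone, and 1 histone gene with copies merged. Leaving out 1 tumour at a time gave 0 to 30 histone genes and 1 to 11399 genes in all; the 30 came without PV-10 tumour 3, and leaving out any other tumour gave 0. In each of these settings 0 histone genes were called lower. The causes were not tested beyond the construction of each setting.

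With a replicate block, 7 histone genes were called higher and 2872 genes in all, and the calls of Hist1h2ao and Hist2h2bb were lost (edgeR adjusted p of 0.226 and 0.0769). Deviations of same-numbered tumours from their group means correlated at -0.049, 0.071 and 0.072. With 3 tumours a group, these values cannot decide whether the tumours were paired. The sample titles number the tumours without naming pairs, and no other setting uses the block.

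For the class sums, the log2 ratio of the means moved with TPM and with the length trend removed, to 0.07 and 0.36 for H1 (0.91 in CPM), 0.21 and 0.09 for H2A (1.13), 0.46 and 0.29 for H2B (1.24), -0.28 and -0.36 for H3 (0.54), and 0.35 and 0.70 for H4 (1.58). With each tumour left out it stayed positive, at 0.45 to 1.13 for H1, 0.65 to 1.40 for H2A, 0.76 to 1.53 for H2B, 0.15 to 0.76 for H3 and 0.94 to 1.93 for H4, and the lowest value of each came without PV-10 tumour 1.

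Of 666 alternative values for the log2 change of 37 named genes, 44 changed sign. Hist1h4d (-0.04) became 0.07 with DESeq2, 0.08 with its size factors, 0.13 with a mean count of at least 50, 0.11 with protein-coding genes alone and -0.30 to 0.10 with a tumour left out. Hist1h1e (0.05) became -0.05 with library size alone, -0.03 with no filter and -0.17 to 0.21 with a tumour left out. On log2(TPM + 1) and log2(TPM + 0.1) the values were -0.62 and -0.64 for Hist1h1c, -0.72 and -0.73 for Hist1h1e, -0.22 in both for Hist1h4b, -0.40 in both for Hist2h3b, -0.41 in both for Hist2h3c2, -0.58 and -0.61 for Slbp, -0.23 in both for H3f3b, -0.44 and -0.45 for H2afx, -0.53 and -0.54 for H1f0, and -0.10 and -0.11 for Cenpa. With the length trend removed they were -0.41 for Hist1h1c, -0.54 for Hist1h1e, -0.19 for Hist1h2ap, -0.01 for Hist1h3c, -0.32 for Hist1h4b, -0.11 for Hist2h2aa1, -0.56 for Hist2h3b, -0.40 for Hist2h3c2, -0.35 for Slbp, -0.06 for H3f3b, -0.25 for H2afx, -0.38 for H1f0 and -0.12 for Cenpa.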
